A study of Mus musculus with 20 samples.

Results

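Interferon regulatory factors (IRFs) are a small family of transcription factors that bind GAAA repeats in DNA. All 8 members described here, Irf1, Irf2, Irf3, Irf4, Irf5, Irf7, Irf8 and Irf9, were chosen by symbol and found by their Ensembl identifiers among the 55487 identifiers of the count table. RNA was sequenced from 20 cultures of BV-2, an immortalized mouse microglial cell line labelled as wild type, in 4 groups of 5. Young (control, low-passage) and aged (cultivated long-term, then frozen as aliquots) BV-2 microglia were left untreated or exposed to 100 ng/ml lipopolysaccharide (LPS), the endotoxin of gram-negative bacteria, for 6 hours. Age thus means time in culture of a proliferating line, and the sources do not state that the 5 aged cultures were aged separately, so p-values measure the spread between cultures, which may be technical. The labels number the cultures of each group by batch, from 1 to 5, and values are listed here in that order.

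IRF3 and IRF7 sit at the end of the signalling routes of pattern recognition receptors: the kinases TBK1 and IKK-epsilon phosphorylate them and they then switch on type I interferon genes. Interferon acts back on the cell through its receptor, JAK kinases and STAT factors that bind DNA together with IRF9, and Irf7 itself is a classical interferon-induced gene. IRF1 is induced by interferon and NF-kappaB and drives antigen presentation and antimicrobial genes, whereas IRF2 binds the same elements and can oppose it. IRF5 works downstream of MyD88 in the induction of inflammatory cytokines. IRF8 and IRF4 bind with the myeloid factor PU.1, and IRF8 is a lineage factor of microglia and macrophages.

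Libraries held 11371508 to 16829292 counts, and 3 counts, taken as the floor of detection for counting error only, stood for 0.178 to 0.264 CPM (counts scaled to the library total). Mitochondrial genes took 0.517% to 1.30% of the counts. All 12 microglia and macrophage markers passed the filter on low counts and summed to 2416 to 4846 CPM per library, while none of the sums for neuron, astrocyte, oligodendrocyte, fibroblast, endothelial, lymphocyte and neutrophil markers exceeded 1.78 CPM. Of the 12, Cx3cr1 and P2ry12 were themselves low, at 0 to 28 and 0 to 31 counts per library. Levels are CPM with TMM-scaled library sizes, and changes are log2 fold changes with their standard error (SE) from edgeR's quasi-likelihood test over 12799 genes. A gene is called where the Benjamini-Hochberg adjusted p over all those genes is below 0.05. Of the 8 IRF genes, 7 passed the filter. Irf4 did not, with 0 to 6 counts per library and 9, 15, 8 and 1 counts summed over the young untreated, aged untreated, young LPS-treated and aged LPS-treated groups. Since the RNA is from whole cultures, fewer cells with a transcript and less transcript per cell cannot be told apart.

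The genes lie apart on the GRCm38 assembly, with Irf1 at chr11:53770014-53778374, Irf2 at chr8:46739732-46847458, Irf3 at chr7:44997648-45002848 and Irf4 at chr13:30749226-30766976. Irf5 is at chr6:29526625-29541871, Irf7, the single member on the minus strand, at chr7:141262706-141266481, Irf8 at chr8:120736358-120756694 and Irf9 at chr14:55603571-55610030. All 8 had a RefSeq promoter window of 300 bases (250 before and 50 after a transcript start, GRCm38.p6), 11 windows in all. The windows of Irf1, Irf2, Irf7 and Irf8 are shown because their genes behaved differently in the counts below: Irf7 changed most, Irf1 rose, Irf2 rose in young cultures and Irf8 fell. Capitals mark matches, on either strand, to 5 letter patterns: the tandem IRF element GAAANNGAA, the PU.1-IRF composite GGAANNGAA, the GAS (STAT) element TTCNNNGAA, the AP-1 element TGANTCA and the kappaB element. They cover chr11:53769764-53770063, chr8:46739495-46739794, chr7:141266375-141266674 (minus strand) and chr8:120736108-120736407, written 5′ to 3′ along the gene.
Irf1: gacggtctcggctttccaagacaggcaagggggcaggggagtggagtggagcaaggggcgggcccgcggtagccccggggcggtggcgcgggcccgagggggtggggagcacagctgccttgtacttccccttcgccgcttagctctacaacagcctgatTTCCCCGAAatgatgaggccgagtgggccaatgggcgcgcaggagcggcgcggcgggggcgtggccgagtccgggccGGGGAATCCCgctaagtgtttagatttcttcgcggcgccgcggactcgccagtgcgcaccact
Irf2: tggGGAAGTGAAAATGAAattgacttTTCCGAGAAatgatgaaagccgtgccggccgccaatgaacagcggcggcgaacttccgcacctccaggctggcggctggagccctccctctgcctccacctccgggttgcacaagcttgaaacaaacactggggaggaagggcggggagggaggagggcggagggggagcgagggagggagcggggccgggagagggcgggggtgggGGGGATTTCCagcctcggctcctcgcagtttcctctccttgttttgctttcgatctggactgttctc
Irf7: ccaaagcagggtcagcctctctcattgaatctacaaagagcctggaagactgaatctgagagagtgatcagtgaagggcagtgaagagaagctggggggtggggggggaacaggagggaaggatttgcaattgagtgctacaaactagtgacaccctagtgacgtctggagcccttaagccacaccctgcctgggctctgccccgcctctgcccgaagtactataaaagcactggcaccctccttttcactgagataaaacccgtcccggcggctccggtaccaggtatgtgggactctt
Irf8: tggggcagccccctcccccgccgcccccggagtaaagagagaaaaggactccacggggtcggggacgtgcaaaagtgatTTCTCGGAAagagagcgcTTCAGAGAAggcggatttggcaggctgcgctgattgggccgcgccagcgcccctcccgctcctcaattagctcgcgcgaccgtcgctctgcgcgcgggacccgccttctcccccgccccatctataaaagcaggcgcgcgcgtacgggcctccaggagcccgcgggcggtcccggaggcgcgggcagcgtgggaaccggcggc

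The Irf1 window held a GAS match, TTCCCCGAA, whose first base lies at -90 from the start, and a kappaB match at -13. The Irf2 window held an overlapping PU.1-IRF match, GGAAGTGAA, and tandem IRF match, GAAAATGAA, at -247 and -241, a GAS match at -224 and a kappaB match at -17. The Irf8 window held 2 GAS matches, at -171 and -153. The windows of Irf3, Irf4, Irf5, Irf7 and Irf9 held none of these letters. Each pattern is common: among 32817 promoter windows, 8.55% held the tandem IRF pattern, 8.25% the PU.1-IRF pattern, 8.29% the GAS pattern, 7.81% the AP-1 pattern and 8.46% the kappaB pattern. A match is a description of the letters and no site of binding.

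**Figure D1:**
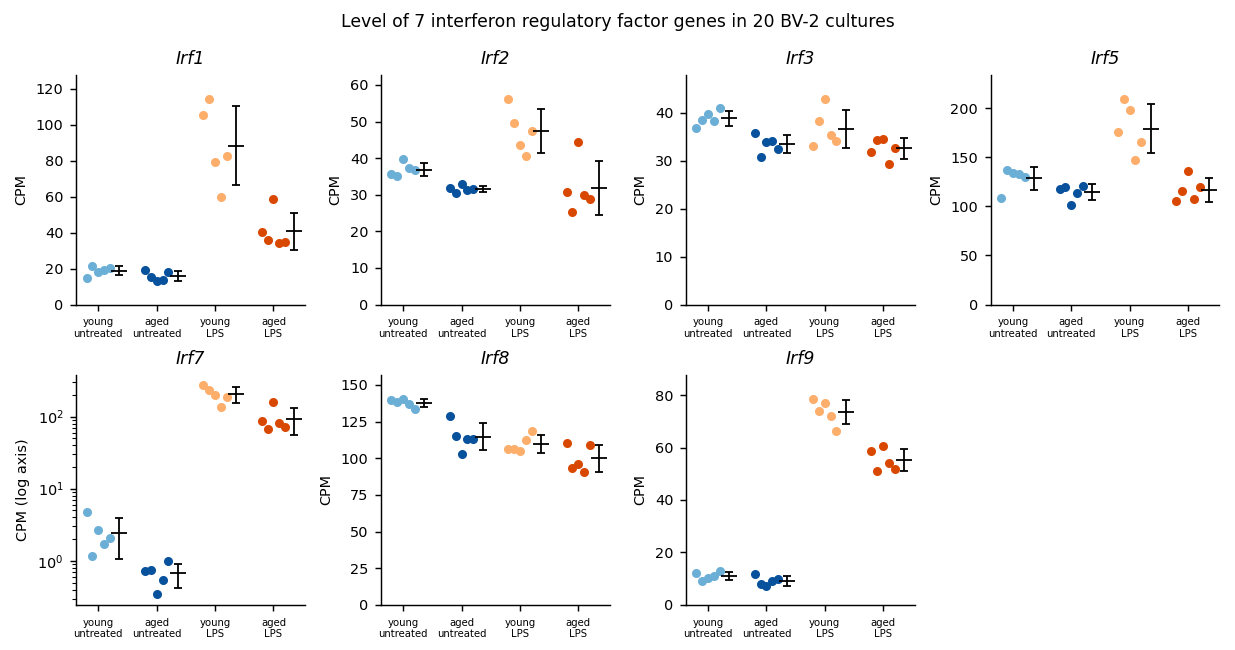
Level of each interferon regulatory factor gene that passed the filter, in CPM (TMM-scaled) on the vertical axes, in the 4 groups on the horizontal axes. Points are the 5 cultures of a group in batch order, the bar beside them is the mean with its SD, and the Irf7 axis is logarithmic. Irf7 moves from 0.342 to 4.76 CPM in untreated cultures to 67.1 to 271 CPM with LPS, Irf1 and Irf9 also rise clear of the untreated cultures, and Irf8 is highest in young untreated cultures.

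Per length, Irf5 and Irf8 made up most of the IRF transcripts of untreated cells. Levels of different genes were compared as CPM per kilobase of merged exons and as the share of each gene in the sum over the 8 genes. Irf5 held 50.5% ± 2.2 (SD, n = 5) of the summed level in young and 52.2% ± 1.7 in aged untreated cultures, and Irf8 held 22.4% ± 1.4 and 21.5% ± 0.79. Irf3 followed with 12.9% ± 0.47 and 12.9% ± 1.0, while Irf7 held 0.765% ± 0.48 and 0.232% ± 0.076. With LPS the makeup was a different one: Irf5 held 33.5% ± 2.5 in young and 35.8% ± 2.9 in aged cultures, and Irf7 held 29.2% ± 3.8 and 21.2% ± 4.7. Irf8 held 8.60% ± 1.6 and 12.7% ± 2.0, Irf1 11.9% ± 1.5 and 8.98% ± 0.81, and Irf9 7.49% ± 0.99 and 9.15% ± 0.86. The summed level was 87.5 ± 4.3 CPM per kilobase in young and 75.6 ± 4.5 in aged untreated cultures, and 185 ± 26 in young and 113 ± 18 in aged LPS-treated cultures. The order of the leading genes depends on the length used: with the longest coding transcript, Irf7 (29.0%) stood above Irf5 (25.5%) in young LPS-treated cultures, and without length Irf8 (36.8%) stood above Irf5 (34.3%) in young untreated cultures.

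**Figure D2:**
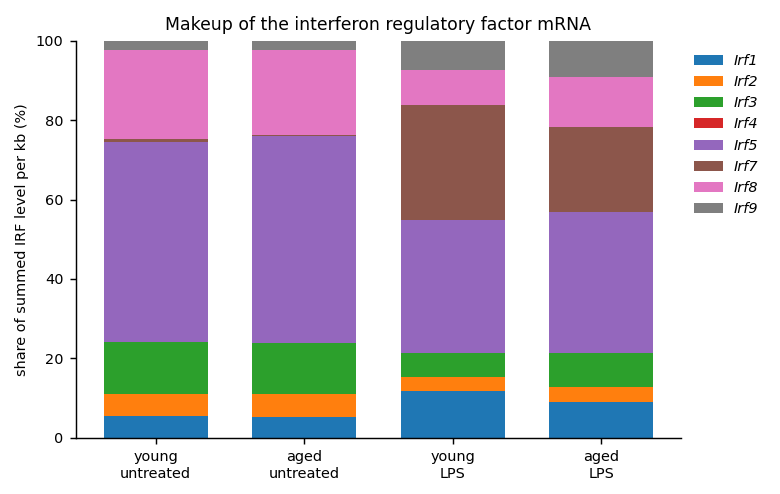
Share of each interferon regulatory factor gene in the summed level of the 8 genes, in percent of CPM per kilobase of merged exons (vertical axis), as the mean of 5 cultures in each of the 4 groups (horizontal axis). Irf5 fills 50.5% and 52.2% of the untreated bars, and Irf7 goes from under 1% to 29.2% and 21.2% with LPS.

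The first question was how IRF genes respond to LPS in young BV-2 microglia. Of the 7 genes tested, 5 rose (Irf1, Irf2, Irf5, Irf7 and Irf9), Irf8 fell and Irf3 was not called. LPS changed much of the transcriptome, with 64.6% of all tested genes called, 31.2% higher and 33.5% lower, so 6 calls among 7 genes are to be read against that share. Over the 7 genes the median change was 0.48, and over all tested genes it was -0.01. In 6 of the 7 genes the untreated and LPS-treated young cultures did not overlap. Here and in the later comparisons the share of all tested genes without overlap was not determined, so such counts are a description. In aged cultures 3 of the 7 rose (Irf1, Irf7 and Irf9), Irf8 fell, and Irf2, Irf3 and Irf5 were not called, beside 54.4% of all tested genes called, 27.5% higher and 26.9% lower. There the median was 0.03 over the 7 genes and 0.00 over all tested genes.

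Irf7, the interferon-induced amplifier of interferon production, had by far the widest range. It was at 4.76, 1.15, 2.66, 1.71 and 2.06 CPM in young untreated cultures and at 0.711, 0.740, 0.342, 0.549 and 0.999 CPM in aged untreated ones. With LPS it was at 271, 236, 200.2, 135 and 188 CPM in young and at 87.5, 67.1, 158, 80.4 and 71.5 CPM in aged cultures. No untreated culture came near any LPS-treated one, all aged untreated cultures lay below all young untreated ones, and aged LPS-treated culture 3 alone reached into the range of the young LPS-treated cultures. The log2 fold change with LPS was 6.39 (SE 0.30, edgeR adjusted p = 1.86e-14), an 83.7-fold rise, in young cultures. It was 7.13 (SE 0.36, edgeR adjusted p = 1.33e-13), or 140-fold, in aged cultures. The difference between these responses, 0.74 (SE 0.61, 95% interval -0.53 to 2.02), did not pass the test (edgeR adjusted p = 0.575). The aged untreated values rest on 6 to 15 counts per library. Phrf1, an opposite-strand gene with 991 to 2017 counts per library, shares 45 exon bases with Irf7 and differed with LPS by -0.06 (edgeR adjusted p = 0.334) in young and 0.04 (edgeR adjusted p = 0.542) in aged cultures.

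Irf9, a DNA-binding factor of the interferon response, was at 12.0, 9.08, 10.3, 11.0 and 13.0 CPM in young untreated and at 11.7, 7.81, 7.19, 9.01 and 9.79 CPM in aged untreated cultures. LPS took it to 78.3, 73.8, 76.9, 72.2 and 66.4 CPM in young and to 58.8, 51.1, 60.6, 54.1 and 51.6 CPM in aged cultures. The untreated groups overlapped, and all 5 aged LPS-treated cultures lay below all young ones. It rose 6.63-fold in young cultures (log2 2.73, SE 0.10, edgeR adjusted p = 5.33e-16) and 6.08-fold in aged ones (log2 2.605, SE 0.10, edgeR adjusted p = 2.82e-15). The difference of the responses was -0.12 (95% interval -0.43 to 0.18, edgeR adjusted p = 0.724). Irf9 shares 123 exon bases with Rnf31, a ubiquitin ligase gene on the same strand, which rose with LPS by 1.26 in young and 0.85 in aged cultures, so reads of the shared stretch may have been counted for neither or either gene. Rnf31 was also lower in aged than in young LPS-treated cultures (-0.41, edgeR adjusted p = 7.33e-04). Its response to LPS was smaller in aged cultures (-0.41, edgeR adjusted p = 0.0483).

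Irf1, the activator of antigen presentation genes, was at 14.8, 21.4, 18.2, 19.3 and 20.4 CPM in young untreated and at 19.0, 15.1, 13.0, 13.6 and 18.3 CPM in aged untreated cultures. With LPS it was at 106, 114, 79.2, 59.6 and 82.7 CPM in young and at 40.3, 35.96, 58.7, 34.5 and 34.9 CPM in aged cultures. The untreated groups overlapped, while the highest aged LPS-treated culture, 58.7 CPM, was just below the lowest young one, 59.6 CPM. Irf1 rose 4.68-fold in young cultures (log2 2.23, SE 0.17, edgeR adjusted p = 9.19e-11) and 2.597-fold in aged cultures (log2 1.38, SE 0.17, edgeR adjusted p = 5.28e-07). The response was smaller in aged cultures by 0.85 on the log2 scale (log2 difference -0.85, SE 0.24, edgeR adjusted p = 0.0349).

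Irf5, the factor of the MyD88 route, was at 108, 137, 134, 133 and 129.8 CPM in young untreated and at 117, 119, 102, 114 and 121 CPM in aged untreated cultures. With LPS it was at 176, 209, 198, 148 and 166 CPM in young and at 105, 116, 136, 108 and 119.6 CPM in aged cultures. Every young LPS-treated culture lay above the young untreated range, whereas the aged LPS-treated cultures overlapped the aged untreated ones. The log2 fold change was 0.48 (SE 0.086, edgeR adjusted p = 4.20e-05) in young cultures, and 0.03 (95% interval -0.15 to 0.21, edgeR adjusted p = 0.800) in aged ones, where it turned to -0.13 with library sizes alone. The difference of the responses was -0.45 (SE 0.12, edgeR adjusted p = 0.0288), and it was below 0 in all 5 batches, from -0.86 to -0.14. Tnpo3, an opposite-strand gene that shares 411 exon bases with Irf5, differed with LPS by 0.07 (edgeR adjusted p = 0.132) in young and 0.03 (edgeR adjusted p = 0.640) in aged cultures.

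Irf2, the antagonist of IRF1 at shared elements, was at 35.6, 35.0, 39.7, 37.2 and 36.7 CPM in young untreated and at 31.8, 30.4, 32.9, 31.2 and 31.6 CPM in aged untreated cultures. With LPS it was at 56.1, 49.6, 43.6, 40.6 and 47.4 CPM in young and at 30.8, 25.2, 44.5, 30.0 and 28.9 CPM in aged cultures. The young LPS-treated cultures all lay above the young untreated ones, and in the aged LPS-treated group culture 3 stood far above the other 4. Irf2 rose in young cultures by 0.36 (SE 0.11, edgeR adjusted p = 0.00469) and was at 0.02 (95% interval -0.21 to 0.24, edgeR adjusted p = 0.915) in aged ones, a value that turned to -0.14 without aged LPS-treated culture 3 (edgeR adjusted p = 0.156) and to -0.15 with library sizes alone (edgeR adjusted p = 0.235). The difference of the responses, -0.35 (SE 0.15), missed the threshold (edgeR adjusted p = 0.201) but was -0.50 without that culture (edgeR adjusted p = 0.00446). With library sizes in place of TMM the rise in young cultures was 0.14 and not called (edgeR adjusted p = 0.228), since that scaling moved the median of all genes to -0.23 in young and -0.16 in aged cultures. Gm16675, a non-coding gene that starts 217 bases from Irf2 on the other strand, rose by 1.84 (edgeR adjusted p = 7.84e-06) in young cultures and 0.73 (edgeR adjusted p = 0.0472) in aged ones, on 7 to 40 counts per library.

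Irf8, the myeloid lineage factor, fell with LPS. It was at 139.9, 138, 140.1, 137 and 134 CPM in young untreated and at 129, 115, 103, 113 and 113 CPM in aged untreated cultures. With LPS it was at 106, 106, 105, 113 and 119 CPM in young and at 111, 93.4, 96.3, 90.4 and 109 CPM in aged cultures. The young untreated cultures lay above every other culture, while the other 3 groups overlapped in pairs. The log2 fold change was -0.33 (SE 0.061, edgeR adjusted p = 5.94e-05) in young and -0.20 (SE 0.061, edgeR adjusted p = 0.00872) in aged cultures, with a difference of 0.13 (95% interval -0.05 to 0.31, edgeR adjusted p = 0.458). Spi1, which encodes its partner PU.1, rose over the same time by 1.23 in young and 1.14 in aged cultures (edgeR adjusted p = 4.90e-15 and 3.69e-14). Gm20388, an annotated gene on the same strand that spans Irf8 without shared exon bases, fell by 0.55 in young and by 0.25 in aged cultures (edgeR adjusted p = 3.81e-08 and 0.00111).

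Irf3, the constitutive partner of Irf7 in the first interferon wave, spanned 36.8 to 40.9 CPM in young untreated, 30.8 to 35.8 in aged untreated, 33.0 to 42.8 in young LPS-treated and 29.3 to 34.4 CPM in aged LPS-treated cultures. LPS-treated and untreated cultures overlapped at both ages. The log2 fold change was -0.08 (95% interval -0.22 to 0.06, edgeR adjusted p = 0.315) in young and -0.04 (95% interval -0.18 to 0.10, edgeR adjusted p = 0.658) in aged cultures. With library sizes alone these were -0.30 (edgeR adjusted p = 5.23e-04) and -0.20 (edgeR adjusted p = 0.0163). Bcl2l12, an opposite-strand gene sharing 88 exon bases with Irf3, fell by 0.45 in young and by 0.34 in aged cultures (edgeR adjusted p = 0.00139 and 0.0117).

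**Figure D3:**
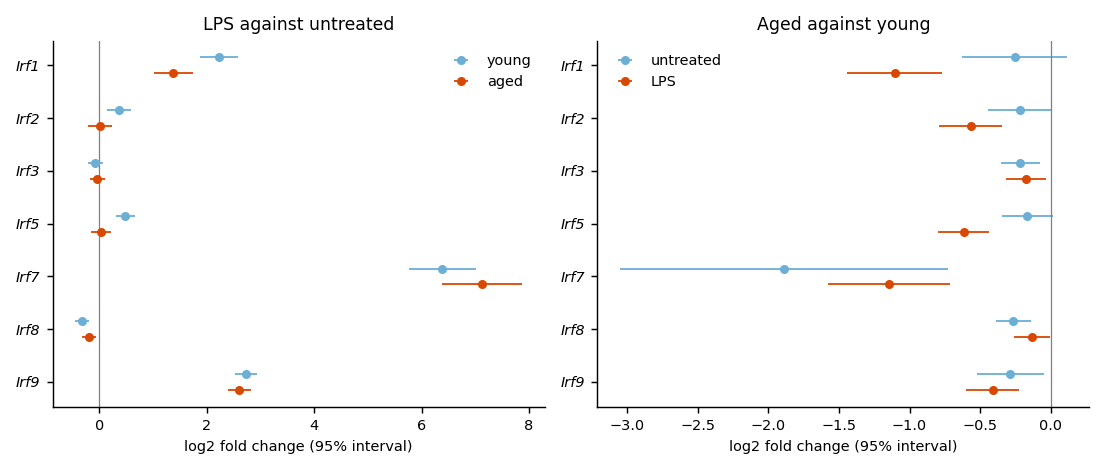
Log2 fold changes with 95% intervals (horizontal axes) of 7 interferon regulatory factor genes (vertical axes) from the edgeR fit to 20 libraries, with LPS against untreated cultures at each age on the left and aged against young cultures under each treatment on the right. On the left Irf7, Irf9 and Irf1 lie right of 0 at both ages and the intervals of Irf5 and Irf2 clear 0 for young cultures and span it for aged ones, whose sign turns with library sizes alone. On the right all points lie left of 0, the intervals of all 7 genes clear it with LPS, and without LPS those of Irf1 and Irf5 span it. The intervals are not adjusted for the number of genes.

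The second question was how aged and young BV-2 microglia differ in IRF genes without a challenge. Irf3, Irf7 and Irf8 were lower in aged cultures, 3 of the 7 genes tested, beside 11.5% of all tested genes called, 3.71% higher and 7.81% lower. The median was -0.26 over the 7 genes and -0.01 over all. Irf7 was lower by the most, at -1.89 (SE 0.56, edgeR adjusted p = 0.0308), from a mean of 2.47 ± 1.4 to 0.668 ± 0.24 CPM (SD, n = 5). Irf8 was at -0.26 (SE 0.060, edgeR adjusted p = 0.00614) and Irf3 at -0.22 (SE 0.066, edgeR adjusted p = 0.0371). Irf1 (-0.26), Irf2 (-0.22), Irf5 (-0.17) and Irf9 (-0.29) did not pass, with edgeR adjusted p between 0.108 and 0.400. Aged and young untreated cultures did not overlap in 4 genes: Irf2, Irf3, Irf7 and Irf8. Within batches the aged culture was the lower one in 5 of 5 for Irf2, Irf3, Irf7, Irf8 and Irf9 and in 4 of 5 for Irf1 and Irf5.

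The Irf7 call leaned on few counts and on single cultures. Young untreated culture 1 had the highest level, 4.76 CPM, and without it the difference was -1.53 (edgeR adjusted p = 0.109), leaving 2 called IRF genes. The call was also lost without young untreated culture 3 or aged untreated culture 1, 2, 3 or 4, with edgeR adjusted p from 0.0506 to 0.0705. The same culture had the highest summed level of 15 listed targets of IRF9 and IRF7, 154 CPM against 57.4 to 85.2 CPM in the other 4 young untreated and 40.7 to 53.9 CPM in the 5 aged untreated cultures. Within its batch Irf7 differed by -2.53, and within the other 4 by -2.54 to -0.55. The Irf3 call was lost without young untreated culture 2, 3 or 5 or aged untreated culture 2, 4 or 5, with edgeR adjusted p up to 0.104, and with no filter (0.0970) or library sizes alone (0.0653).

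The third comparison set aged against young cultures under LPS. Irf1, Irf2, Irf5, Irf7 and Irf9 were lower in aged cultures, 5 of the 7 genes tested, beside 29% of all tested genes called, 14% higher and 15% lower. The median over the 7 genes was -0.57, that over all tested genes 0.01. The largest differences were those of Irf7 and Irf1, at 0.452 and 0.465 times the young level. They were -1.11 for Irf1 (SE 0.16, edgeR adjusted p = 2.00e-05), from 88.3 ± 22 to 40.9 ± 10 CPM, and -1.15 for Irf7 (SE 0.21, edgeR adjusted p = 2.30e-04), from 206 ± 51 to 92.9 ± 37 CPM. Irf5 was at -0.62 (SE 0.087, edgeR adjusted p = 1.42e-05), Irf2 at -0.57 (SE 0.11, edgeR adjusted p = 3.34e-04) and Irf9 at -0.41 (SE 0.091, edgeR adjusted p = 0.00154). Irf3 (-0.18, edgeR adjusted p = 0.0560) and Irf8 (-0.13, edgeR adjusted p = 0.106) did not pass. Irf3 sat near the threshold and was called in 7 of 17 alternatives, among them DESeq2 (-0.19, adjusted p = 0.0385) and the replicate number as a block (-0.17, edgeR adjusted p = 0.0456), and Irf8 in 1 of 17. The groups did not overlap for Irf1, Irf5 and Irf9.

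In Irf1, Irf2 and Irf7, aged LPS-treated culture 3 stood nearer to the young cultures than the others of its group. It had the highest level of its group in 6 of the 7 genes, all but Irf8, and within its batch the differences were -0.43 for Irf1, 0.03 for Irf2 and -0.34 for Irf7, against -1.66 to -0.79, -0.97 to -0.44 and -1.81 to -0.75 in the other 4. That did not hold for every gene: within the same batch Irf3 differed by -0.31, the widest of the 5 batches, and Irf5 by -0.54, inside the range of the others (-0.85 to -0.45). Without culture 3, 6 of the 7 genes were lower in aged LPS-treated cultures, since Irf3 then passed (-0.20, edgeR adjusted p = 0.0434). Culture 3 was also highest of its group in the summed level of the 15 IRF9 and IRF7 targets, 3291 CPM against 1355 to 2193 CPM in the other 4 aged and 4508 to 6685 CPM in the 5 young LPS-treated cultures, and so below every young one. In the young LPS-treated group, culture 4 was lowest in 4 of the 7 genes, Irf1, Irf2, Irf5 and Irf7.

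Tested directly, the LPS response was smaller in aged cultures for 2 of the 7 genes, Irf1 and Irf5, beside 6.39% of all tested genes with a difference called, 4.12% higher and 2.27% lower. Both calls sat near the threshold. That of Irf1 was lost without young untreated culture 1, 3 or 4, aged untreated culture 1, 2 or 5, young LPS-treated culture 1 or 2, or aged LPS-treated culture 1, 2, 4 or 5, with values from -0.87 to -0.74 and edgeR adjusted p up to 0.0769. That of Irf5 was lost without aged untreated culture 2 or 5, young LPS-treated culture 2 or 3, or aged LPS-treated culture 1, 2 or 4, with values from -0.45 to -0.39 and edgeR adjusted p up to 0.0667. Leaving out a single library or batch left between 0 and 3 of the 7 genes called. Within batches the Irf1 difference was negative in 4 of 5, from -1.74 to -0.29, and 0.05 in batch 3.

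Across the 6 pairs of groups the genes fell into distinct orders. For Irf7 all 4 groups differed from each other, from aged untreated, young untreated and aged LPS-treated to young LPS-treated. Irf1 and Irf9 had the same order of means, but their untreated groups did not differ from each other. For Irf2 and Irf5 the order was aged untreated, aged LPS-treated, young untreated and young LPS-treated, and only the last stood apart by the test from its neighbour. Irf8 was lowest in aged LPS-treated cultures and highest in young untreated ones, and young LPS-treated and aged untreated cultures, next to each other, did not differ (edgeR adjusted p = 0.378). For Irf3 no neighbours in the order differed, and only young untreated cultures stood above both aged groups.

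The genes closest to an IRF in pattern were found for the 3 members whose group means spanned at least 1 on the log2 scale, by the root mean square (RMS) difference of centred log2 CPM over the 20 libraries among 10876 genes. Closest to Irf7 were Xaf1 (0.36), Samd9l (0.36) and Ifi211 (0.37), all known as interferon-induced genes. Closest to Irf1 were Atrip (0.18), a DNA damage checkpoint gene, Daxx (0.20), a histone chaperone gene, and Nmi (0.23), an interferon-induced STAT interactor. Closest to Irf9 were Pim1 (0.18), a kinase gene, Rassf4 (0.19) and Lacc1 (0.20). The points share libraries and scaling, and the values are a description.

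Upstream of the IRFs, 10 of the 16 listed genes of the TLR4 route rose with LPS and 4 fell in young cultures, and 10 rose and 3 fell in aged ones, beside 64.6% and 54.4% of all tested genes called. Under LPS 10 of the 16 were lower in aged cultures, beside 15% of all tested genes, and Traf6, a ubiquitin ligase gene, was higher (0.21, edgeR adjusted p = 0.0380). The other 5, Irak1, Irak4, Ticam2, Traf3 and the receptor gene Tlr4 (0.10, edgeR adjusted p = 0.502), were not called. Over all 16 listed genes the median aged-to-young difference under LPS was -0.32, beside 0.01 over all tested genes. Ikbke, the gene of the IRF3 and IRF7 kinase IKK-epsilon, rose by 2.76 in young and 2.93 in aged cultures, and Tbk1, its partner kinase, by 1.03 and 0.74. The responses of Tbk1 (-0.28), Tank (-0.38), Azi2 (-0.40), both adaptors of these kinases, and Myd88 (-0.38) were smaller in aged cultures, with edgeR adjusted p between 0.00415 and 0.0230. In untreated cells 2 of the 16 genes were lower in aged cultures, Ikbke (-0.45) and Irak1 (-0.27), a share near the 7.81% of all tested genes that were lower.

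Of 10 nucleic acid sensor genes upstream of IRF3 and IRF7, 8 rose and 2 fell in young cultures, and 7 rose and 2 fell in aged ones, beside 31.2% of all tested genes higher and 33.5% lower in young and 27.5% and 26.9% in aged cultures. Under LPS 6 were lower in aged cultures, beside 15% of all. One of the 6, Ifih1, the gene of the RNA sensor MDA5, was at 10.0 to 17.5 CPM in young and at 0.165 to 0.759 CPM in aged LPS-treated cultures. Without LPS it was at 0 to 0.330 CPM in young cultures, and no count was found in aged ones. It passed the filter on low counts only through young LPS-treated cultures, where it was high, so its values are a description and its call is no support for the count. Of 10 tested genes for interferon receptors and JAK-STAT signalling, 9 rose in young and 8 in aged cultures, 1 fell at both ages, and 9 were lower in aged LPS-treated cultures. Stat2, which encodes a partner of IRF9, was at -1.34 there (edgeR adjusted p = 1.68e-05), and the responses of Stat2 (-1.23) and Jak2 (-0.69) were smaller in aged cultures (edgeR adjusted p = 0.0155 and 0.0132). Ifnb1, the interferon-beta gene, had 0 to 7 counts per library and was not tested. Zbp1, a sensor gene, and Socs1, a JAK-STAT gene, passed the filter only through LPS-treated cultures. Their rise is no support for the counts of genes that rose.

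Among 10 tested DNA-binding partners and corepressors, 4 rose and 4 fell in young cultures, 4 rose and 3 fell in aged ones, and under LPS 3 were higher and 3 lower in aged cultures. The shares with LPS are near those over all tested genes, 31.2% higher and 33.5% lower in young and 27.5% and 26.9% in aged cultures, and those under LPS stand beside 14% higher and 15% lower. Batf2, which encodes a partner of IRF1 and IRF8, was at -1.95, and Tcf3, the gene of the E2A factors, at 0.32. Batf2 passed the filter only through LPS-treated cultures, so its rise is no support for the counts of genes that rose. Of 8 modifiers of IRF proteins, 6 rose at both ages, 1 fell in aged cultures, and 6 were lower in aged LPS-treated cultures. Peli1, a ubiquitin ligase gene with roles in TLR signalling, rose by 1.47 in young and 0.72 in aged cultures, a difference of -0.75 (SE 0.11, edgeR adjusted p = 2.24e-04).

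The listed targets of IRF9 and IRF7, IRF3, IRF1 and IRF5 rose with LPS and were lower in aged LPS-treated cultures, whereas not all of those of IRF2, IRF4 and IRF8 did. All 15 targets of IRF9 and IRF7 rose with LPS at both ages and all 15 were lower in aged LPS-treated cultures, from -0.69 (Oas1a) to -2.27 (Mx1), with a median of -1.52 beside 0.01 over all genes. All 5 tested targets of IRF3, all 10 of IRF1 and all 3 of IRF5 rose at both ages and were lower in aged LPS-treated cultures, with medians of -1.79, -1.42 and -2.25. These lists share genes, such as Ifit1, Ifit2 and Isg15. Over all tested genes, 31.2% rose with LPS in young and 27.5% in aged cultures, and 15% were lower in aged LPS-treated cultures. Ifit1, Ifit3, Mx1, Mx2, Ifi44, Rtp4, Xaf1, Gbp2, Gbp5, Nos2, Il27, Il6 and Il1b passed the filter on low counts only through LPS-treated cultures. Their calls for a rise with LPS are thus no support for the counts of genes that rose. Cxcl10, an IRF3 target and chemokine gene, was at 465 to 1607 CPM in young and 161 to 618 CPM in aged LPS-treated cultures, and Nos2, an IRF1 target, was at 130.4 to 431 and 62.2 to 220.1 CPM. For Nos2 mRNA the paper reports the opposite direction, higher in aged than in control cells under LPS, by RNA-seq and RT-qPCR. The figure it cites for RNA-seq shows genes by their response to LPS. Its measure may thus be the fold with LPS, given next, and not the level under LPS. In aged untreated cultures Nos2 had no library above 3 counts, so it was at least 547-fold higher with LPS, taking the floor in each library. Il6, an IRF5 target with no count in aged untreated cultures, was at least 27.6-fold higher. In young cultures the edgeR fold was 195 for Nos2 and 329 for Il6, the latter from at most 0.276 CPM in untreated cultures. The responses to LPS were smaller in aged cultures for 2 of the 15, Ifit2 (-1.30) and Oasl1 (-0.74), and for 2 of the 10 IRF1 targets, Cd274 (-1.17) and Nlrc5 (-0.58), with edgeR adjusted p between 0.00879 and 0.0492. Among all tested genes the difference of the responses was called lower in 2.27% and higher in 4.12%. None of the 15 or the 10 was called in the other direction, but the median difference of the responses was 0.88 over the 15, with 11 above 0, and 1.04 over the 5 IRF3 targets, beside 0.02 over all tested genes. Without young untreated culture 1 the median was 0.54 over the 15 and 0.54 over the 5. Without aged LPS-treated culture 3 it was 0.57 and 0.48. Of the 15, 4 had no library above 3 counts in a group, and over the 11 others the median was also 0.88. Among those 11, Ifit1, Ifit3, Xaf1 and Cmpk2 were close to the floor, at no more than 0.333 CPM in any aged untreated culture. The widest of those 11 were Rsad2 (2.44, edgeR adjusted p = 0.116) and Cmpk2 (1.87, edgeR adjusted p = 0.385), both lower in aged untreated cultures. Over the 10 IRF1 targets the median was -0.49, and over the 6 of them above the floor in every group it was -0.56.

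Without LPS, 6 of the 15 IRF9 and IRF7 targets, 3 of the 5 IRF3 targets, 3 of the 10 IRF1 targets and 1 of the 3 IRF5 targets were lower in aged cultures, beside 7.81% of all tested genes lower and 3.71% higher. Without young untreated culture 1 these counts were 4 of 15, 1 of 5, 0 of 11 and 0 of 3. With the replicate block, 6 of the 10 IRF1 targets were lower. Of the genes called in the main fit, Rtp4, Gbp2 and Nos2 had no aged untreated library above 3 counts. Ifit1, Isg15, Oasl2, Cmpk2 and Gbp3 were close to that floor, at no more than 0.52 CPM in any aged untreated culture. Ifit1 and Isg15 count both as IRF9 and IRF7 targets and as IRF3 targets.

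Both IRF2 targets, the pyroptosis genes Gsdmd and Casp4, were lower in aged cultures with and without LPS, Gsdmd by -0.86 and -0.36 and Casp4 by -0.74 and -0.79. Gsdmd rose by 0.56 in young cultures and was at 0.05 in aged ones, and its response was smaller in aged cultures (-0.51, edgeR adjusted p = 0.00675). Of 7 targets of IRF8 with PU.1, 4 were lower in aged untreated and 5 in aged LPS-treated cultures, beside 7.81% and 15% of all. The medians were -0.51 and -0.44, beside -0.01 and 0.01 over all tested genes. With the replicate block or without aged LPS-treated culture 3, 4 were lower under LPS. Aif1, the microglial marker gene of IBA1, was at -1.15 in aged untreated (edgeR adjusted p = 2.21e-04) and -1.27 in aged LPS-treated cultures (edgeR adjusted p = 2.39e-05). With LPS 1 of these 7 rose and 2 fell in young cultures and 1 rose and 1 fell in aged ones, 3 and 2 of 7 beside 64.6% and 54.4% of all tested genes called. Cybb, a subunit gene of the phagocyte NADPH oxidase, rose by 2.80 and 3.04. Cx3cr1, the fractalkine receptor gene, fell in young and P2ry12, a purinergic receptor gene, at both ages, and both passed the filter only through untreated cultures. No other gene of the 7 fell, so the calls of these genes are no support for the counts of falls. Of the 6 listed IRF4 targets 2 were tested, and Mrc1, the mannose receptor gene, fell with LPS (-0.73 in young and -0.53 in aged cultures) and was lower in aged cultures at -1.06 without and -0.85 with LPS. Mgl2, a lectin gene, fell in young cultures (-0.91) and did not pass the test in aged ones or between ages.

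**Figure D4:**
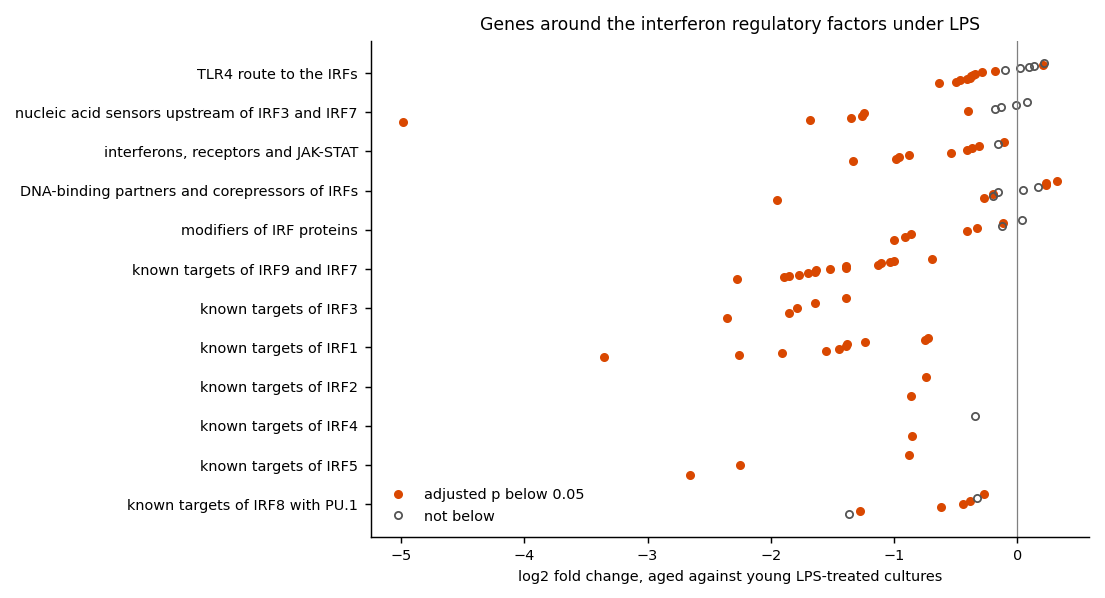
Log2 fold change of aged against young LPS-treated cultures (horizontal axis) for the tested genes of 12 lists around the interferon regulatory factors (vertical axis, each point 1 gene). Filled points passed the edgeR test at an adjusted p of 0.05 and open points did not. All 15 points of the IRF9 and IRF7 targets are filled and lie between -2.27 and -0.69, whereas partners and corepressors lie on both sides of 0.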

How the data were processed

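The deposited table held raw counts per Ensembl gene, which the authors made by converting reads with bcl2fastq, aligning stranded poly(A) libraries to GRCm38 with STAR (2.6.1d) and counting with featureCounts (1.5.1). Strand and overlap settings are not given in the sources used here, so genes overlapping others are uncertain. All 20 columns match sample labels. The members and gene lists were chosen with earlier results of these data known.

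Counts were tested with edgeR 4.0.16 (quasi-likelihood F-test, R 4.3.3 with limma 3.58.1) in one fit to all libraries, with group as the only factor, TMM and filterByExpr, in 5 main comparisons: aged against young untreated, LPS against untreated at each age, aged against young under LPS, and the difference of the LPS responses. The other 2 pairs of groups were tested in the same fit for the order of levels. P-values were Benjamini-Hochberg adjusted over 12799 genes. In a simulation of the aged against young untreated comparison on 12636 genes, 176 of 200 genes changed 2-fold were recovered with 6 false calls. With the replicate block 176 were recovered with 9 false calls. DESeq2, on 12799 genes, called 177 of the changed genes, with 18 false calls. Direction was checked for the edgeR recoveries and not for those of DESeq2. Batch differences and smaller changes were not simulated, so the simulation does not bear on the pairing or on differences below 2-fold. Log2 CPM used a prior count of 2. Lengths and overlaps came from GENCODE vM21, in which 55141 of 55487 identifiers were found, and promoters from RefSeq. Replicate pairs differed by more than counting error (chi-square over its degrees of freedom was 2.35 to 25.3 in 40 pairs). Counts against a group at or below 3 counts in every library are bounds.

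Genes named besides members were the 3 closest in pattern, the largest changes of each list, genes acting with a member, and neighbours. One listed gene is not reported here and was left out of its list. Batch numbers in the labels pair the cultures; deviations of same-numbered cultures correlated at 0.146 on average, against -0.036 for other numbers. Alternatives were DESeq2 1.42.0, the replicate block, DESeq2 size factors or library sizes alone, no filter, at least 10 counts in every library, only the groups compared, and each library or replicate number left out. The longest-transcript length and the list counts without doubted libraries or with the block and the CPM scale in the search for libraries apart were added after seeing the data.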

Additional observations from a re-analysis of the deposited data

Results flagged for a closer look

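Irf5 in young untreated culture 1 (108 CPM) lay apart from the other 4 cultures of its group, of which the next lowest was at 129.8 CPM. On the log2 CPM scale it was the 1 case among 28 groups of 5 examined in this way, where chance alone gives about 1 in 20. On the CPM scale there were 3 cases: aged LPS-treated culture 3 also lay apart for Irf1 (58.7 CPM, next 40.3 CPM) and for Irf7 (158 CPM, next 87.5 CPM).

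The LPS response differed between aged and young cultures, by the interaction test of the edgeR fit, for Irf1 (-0.85 on the log2 scale, SE 0.24, adjusted p = 0.0349) and for Irf5 (-0.45, SE 0.12, adjusted p = 0.0288). Both responses were smaller in aged cultures.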

How the results depend on the processing

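Under every alternative test, scaling and filter the numbers of IRF genes called stayed within 1.5 times of those given, and Irf1, Irf2, Irf5, Irf7 and Irf9 kept their calls between aged and young LPS-treated cultures wherever they were tested. Among values of single IRF genes, without Irf4, 40 lost a call, 14 gained one and 7 changed sign. Leaving out single libraries or replicate numbers moved 2 of the 5 numbers, to between 1 and 3 for aged against young untreated cultures and to between 0 and 3 for the difference of the LPS responses. Over all alternatives the Irf1 difference of responses ranged from -1.11 to -0.62 (adjusted p 0.00364 to 0.210) and that of Irf5 from -0.53 to -0.35 (0.00650 to 0.194). The cause was not tested.

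In the LPS response of aged cultures Irf2 turned to -0.15 with library sizes alone and to -2.1e-05 with no filter, and ranged from -0.14 to 0.0875 when a library was left out. Irf5 turned to -0.13 with library sizes alone and ranged from -0.0308 to 0.0573 when a library was left out. The Irf3 difference of responses ranged from -0.0185 to 0.10 when a library or replicate number was left out. None of these values was called.

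The replicate block, which treats the batch numbers as pairing the cultures, called Irf3 in aged against young LPS-treated cultures (-0.17, adjusted p = 0.0456), as 6 other alternatives did, and changed no other IRF call. With the block 6 IRF1 targets and 2 IRF4 targets were called in untreated cultures and 1 sensor gene in the difference of responses. Without young untreated culture 1, 1 sensor gene, 1 partner, 1 IRF3 target and 0 IRF1 and 0 IRF5 targets were called in untreated cultures. In the difference of responses, leaving out that culture or aged LPS-treated culture 3 gave 3 to 4 JAK-STAT genes, 1 to 4 IRF1 targets and 0 to 1 sensor genes.

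Depth limits Irf4, which had 15 counts in all in aged untreated and 1 in aged LPS-treated cultures. No library of the latter exceeded 3 counts, so no fold is given. On these few counts, 2 alternatives called Irf4 lower with LPS in aged cultures: DESeq2 (adjusted p = 0.0261) and edgeR with no filter (adjusted p = 0.0189).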
